A study of Mus musculus with 9 samples.

Results

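The comparison described here set the lungs of mice with 1 allele of a human CFTR transgene (HE) against wild-type lungs (WT). Its members were chosen by sample title: HE replicates 1, 2 and 3 and WT replicates 1, 2 and 3, which are 6 of the 9 arrays in the series. All 22626 probe sets that are not array controls were included. The transgene holds normal human CFTR cDNA driven by the promoter of the mouse Sftpc gene, and the study placed its expression in the respiratory epithelium of adults. All samples are labelled as the inbred strain FVB/N. HE mice were SP-C-hCFTR+|- and kept both copies of the mouse gene (mCftr+|+). WT mice carried no transgene and were mCftr+|+, although WT replicate 3 has no genotype entry of its own. The remaining 3 arrays came from mice with 2 transgenic alleles (HO), and entered the fit for their spread and for the difference between 1 and 2 alleles. HO replicate 2 is written with 2 alleles in its genotype entry and with 1 in its description.

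CFTR is a chloride and bicarbonate channel of the apical membrane of epithelia, and its loss causes cystic fibrosis. Much newly made CFTR is removed by quality control in the endoplasmic reticulum, and the channel that reaches the surface is recycled through endosomes. The mouse Sftpc promoter is active mainly in alveolar type II cells, which make surfactant. Which cells of these lungs gained the channel from the transgene was not tested. The question was how lung mRNA levels differ when this extra channel is present in a single transgenic allele.

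Total RNA was hybridised to Affymetrix 430A mouse arrays, and each value below is the log2 of the deposited signal unless a linear signal is named. Median signals were 697 to 742 over the arrays, and array pairs correlated on average at 0.967 within HE, 0.964 within WT and 0.968 between HE and WT. The lung identity of the 6 arrays was plain in the ranks of defining genes among 22626 probe sets. Sftpc held ranks 2 to 4, the club cell secretoglobin Scgb1a1 ranks 5 to 10, the lysozyme Lyz2 ranks 7 to 25, and the type I cell receptor Ager ranks 106 to 217. The labels call the samples triplicates without saying that each came from its own animal, so p-values here measure the spread between these samples, which may be technical. A filter on low signal left 13576 probe sets for testing. For a typical probe set the SE of HE minus WT was 0.160 and the 95% interval reached 0.351 to either side.

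The transgene carries human sequence, and no probe set here is known to read it. The mouse genes Sftpc and Cftr, which are separate from it, did not differ detectably. Sftpc, whose promoter the transgene borrows, read 15.92, 15.76 and 15.94 on HE replicates 1, 2 and 3 and 16.06, 16.06 and 15.62 on the WT replicates, a difference of -0.04 ± 0.15 (SE, n = 3 per group) with a 95% interval of -0.37 to 0.30. The highest and the lowest array were both WT. Mouse Cftr read 10.10, 9.96 and 10.02 in HE and 9.90, 10.23 and 9.82 in WT, a difference of 0.04 ± 0.14. Whether its probes bind the human transcript was not tested, so the values do not check the genotype labels.

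Over all tested genes the difference between HE and WT was small and no probe set passed. Of 13576 probe sets, 0 (0%) had an adjusted p under 0.05 in limma, with a lowest adjusted p of 0.685. An unadjusted p under 0.05 was reached by 422 probe sets (3.11%), against 679 that this level gives by chance, and 7 had a p under 0.001, against 13.6 by chance. With the replicate number as a block in the limma fit, 591 (4.35%) had an unadjusted p under 0.05 and 0 passed. Of the 422, 161 were higher and 261 lower in HE (206 and 222 after quantile normalization, 244 and 177 after centring on the median). The middle 95% of differences ran from -0.39 to 0.33, 91.5% lay within 0.3 of 0, and 10 probe sets lay beyond 1, with 5 in each direction. In 1045 probe sets (7.70%) the groups were fully apart, 441 with every HE array higher and 604 with every HE array lower. With 1 probe set per gene, 8184 genes were tested, of which 3771 (46.1%) were higher in HE, 261 (3.19%) had an unadjusted p under 0.05, and the median difference was -0.01. Values of single genes and lists below are therefore descriptions of these 6 arrays.

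**Figure D1:**
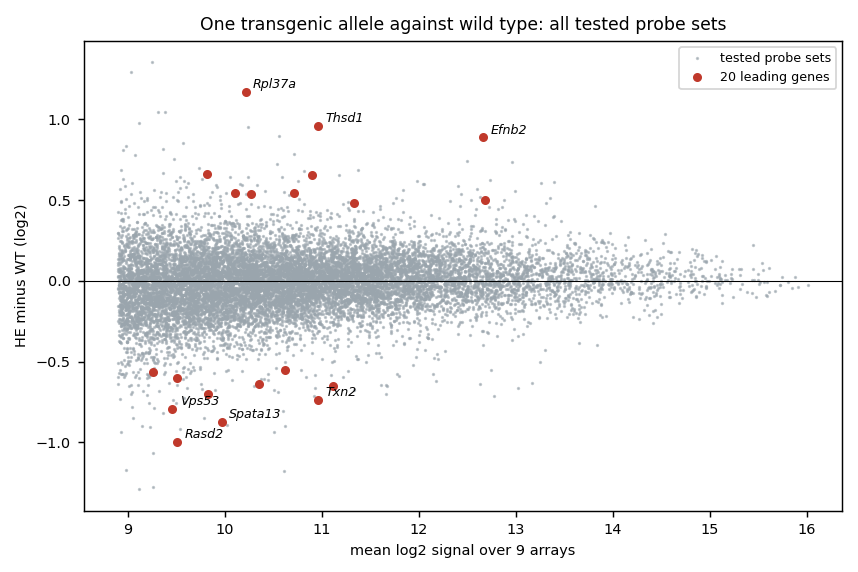
Difference between HE and WT (log2, vertical axis) against the mean log2 signal over 9 arrays (horizontal axis) for the 13576 tested probe sets; red points are the 20 leading genes described in the text. Most points lie within 0.3 of 0, and the leading genes named on the plot, such as Thsd1, Efnb2 and Rasd2, stand among other probe sets with differences of similar size.

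The 20 leading genes were the 10 higher and 10 lower of lowest p among probe sets with 1 gene symbol and arrays that did not overlap. Thsd1, which encodes a membrane protein with a thrombospondin type domain found in endothelial cells, led the higher end. It read 11.61, 10.97 and 11.25 on the HE replicates and 10.36, 10.18 and 10.42 on the WT replicates, so each HE array lay above each WT array. The difference was 0.96 ± 0.16, or 1.94 times the WT signal. The other Thsd1 probe set read 11.04, 10.21 and 10.75 in HE and 10.21, 9.99 and 9.88 in WT, a difference of 0.64 ± 0.20. The groups again did not overlap, though HE replicate 2 (10.214) barely exceeded WT replicate 1 (10.208). Thsd1 is the only one of the 20 genes with a further tested probe set at an unadjusted p under 0.05. HO minus WT at the leading Thsd1 probe set was 0.97, and HE minus HO was -0.01 ± 0.16. At the other probe set these were 1.055 and -0.41 ± 0.20.

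Efnb2, the ephrin B2 ligand of arterial endothelium, read 13.37, 13.28 and 12.77 in HE and 12.07, 12.19 and 12.50 in WT, a difference of 0.89 ± 0.20. HE replicate 3 was the lowest HE array and WT replicate 3 the highest WT array. Its 3 other probe sets gave 0.42, 0.32 and 0.02. Rpl37a, a protein of the large ribosomal subunit, read 10.58, 10.37 and 10.54 in HE and 8.51, 9.61 and 9.86 in WT, a difference of 1.17 ± 0.28 with WT replicate 1 far below the others. Its other probe sets gave 0.17 and -0.0026, and ribosomal protein genes have many near-identical pseudogenes that probes can share. Med1, a Mediator subunit that binds nuclear receptors, read 10.97, 11.13 and 10.97 in HE and 10.29, 10.65 and 10.49 in WT, a difference of 0.55 ± 0.13 against 0.0019 at its other tested probe set.

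The other 6 genes of the higher end lay between 0.48 and 0.66. Csnk1g2, a casein kinase 1 isoform, was at 0.48 ± 0.12, and Rab43, a GTPase of Golgi traffic, read 10.48, 10.45 and 10.46 in HE and 10.05, 9.96 and 9.76 in WT, a difference of 0.54 ± 0.14. The 3 HE values of Rab43 are almost the same, but its other probe set gave -0.18. Vapb, a tether protein of the endoplasmic reticulum membrane, was at 0.66 ± 0.18, though a second probe set gave -0.20, and Cdk2ap1, a partner of the kinase CDK2, at 0.50 ± 0.14, though its others gave -0.19 and -0.14. Agfg1, an endocytic adaptor, was at 0.55 ± 0.15, and its 4 other probe sets lay between -0.07 and 0.11. Sult1a1, a sulfotransferase of phenols, was at 0.65 ± 0.18 and is described with its list below.

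At the lower end, Rasd2, a small GTP-binding protein best known from the striatum, read 9.09, 9.08 and 8.60 in HE and 9.92, 9.84 and 9.99 in WT. The difference was -0.996 ± 0.162, and the WT arrays lay close together while HE replicate 3 was lowest. Its other probe set gave -0.25. Rasd2 was also the leading gene that differed most from mice with 2 alleles by p, with HE minus HO at -0.76 ± 0.16 and HO minus WT at -0.24. Vps53, a subunit of the complex that tethers endosome vesicles to the Golgi, read 9.06, 9.13 and 8.98 in HE and 9.74, 10.11 and 9.70 in WT, a difference of -0.79 ± 0.14, with 0.05 at its other probe set. Txn2, the mitochondrial thioredoxin, read 10.55, 10.60 and 10.79 in HE and 11.51, 11.46 and 11.18 in WT, a difference of -0.74 ± 0.15, with 0.25 and -0.30 at its others.

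Tagln2, an actin-binding protein, read 11.08, 10.94 and 10.72 in HE and 11.63, 11.56 and 11.50 in WT, a difference of -0.65 ± 0.14, and its other probe set gave -0.12. Icosl, the ligand of the T cell costimulator ICOS, read 10.15, 9.69 and 10.14 in HE and 10.50, 10.66 and 10.74 in WT, a difference of -0.64 ± 0.15. It has no further tested probe set. Col18a1, a basement membrane collagen, read 10.25, 10.28 and 10.32 in HE and 10.96, 10.65 and 10.90 in WT, a difference of -0.55 ± 0.14, against 0.02 at its other probe set. The exchange factor Spata13 was at -0.87 ± 0.23, Gatm of creatine synthesis at -0.70 ± 0.18, the lipid carrier Stard6 at -0.60 ± 0.15 and the endolysosomal channel Mcoln3 at -0.56 ± 0.15. Mcoln3 had -0.14 at its other probe set.

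**Figure D2:**
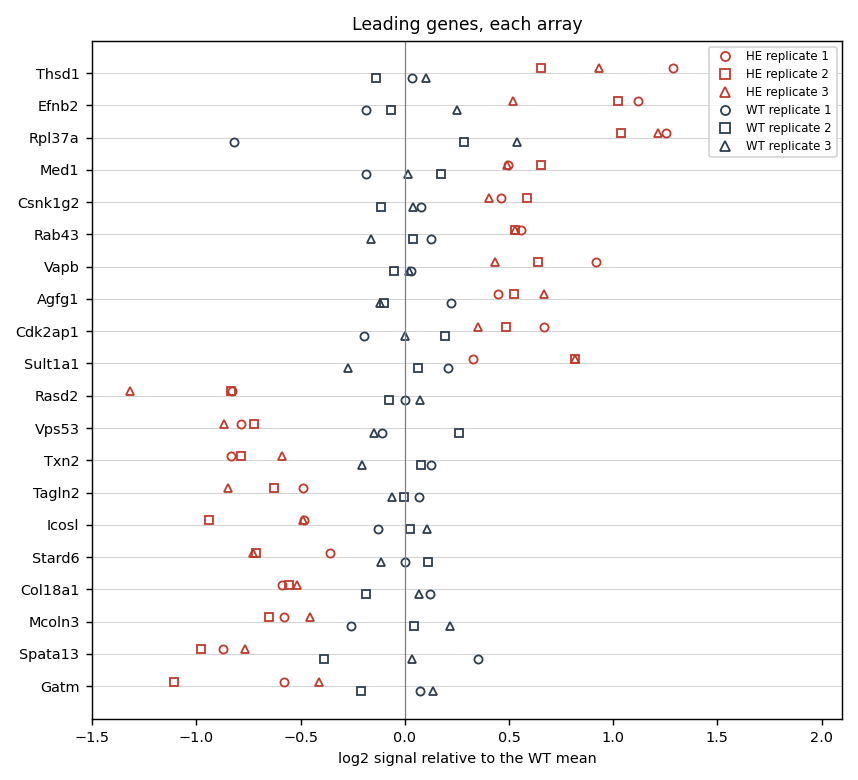
Log2 signal of the 20 leading genes on each of the 6 arrays relative to the WT mean (horizontal axis); red symbols are HE and dark symbols WT replicates. By the rule of choice HE and WT symbols do not overlap within a gene, and Rpl37a shows the widest WT spread, with WT replicate 1 lowest.

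Of the 20 leading genes, 14 had other tested probe sets, 22 in all, and 13 of these 22 had the sign of the leading one. The weak relation between probe sets of 1 gene held across the array. Of 2882 genes with at least 2 tested probe sets, all sets had the same sign in 1347 (46.7%), 669 higher and 678 lower. Across these genes, which are not independent replicates, the differences at the 2 probe sets of highest signal correlated at 0.17. At an unadjusted p under 0.05, 8 genes (0.278%) had at least 2 probe sets in 1 direction, and 1 gene, Cacul1, had them in opposite directions (-0.32 ± 0.12 and 0.42 ± 0.17).

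**Figure D3:**
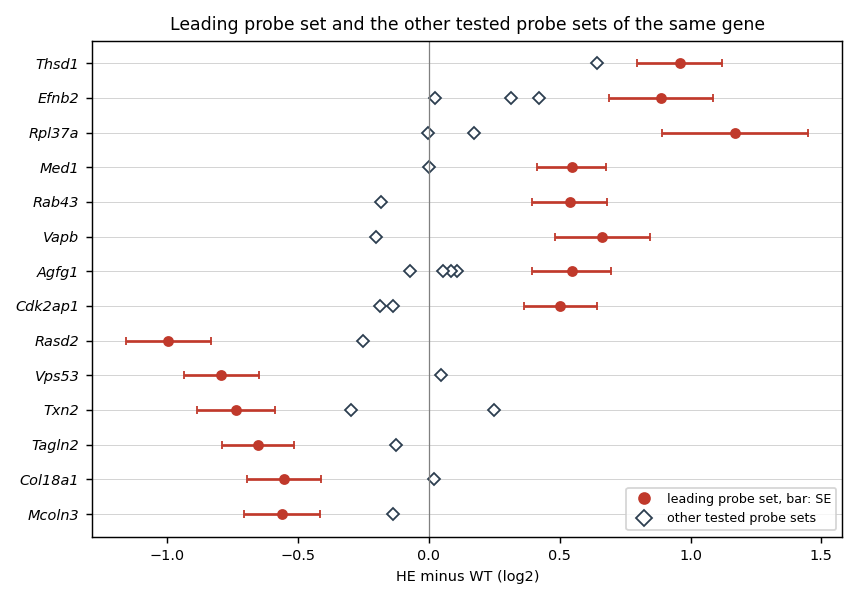
HE minus WT (log2, horizontal axis) at the leading probe set (red, bar: SE) and at the other tested probe sets (open diamonds) of the 14 leading genes that have any. The diamond of Thsd1 at 0.64 is the farthest from 0, and those of Vps53, Med1 and Col18a1 lie within 0.05 of 0.

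Among genes with every tested probe set on 1 side, the leading ones by the weaker of their probe sets were mostly of modest size. Gsta3, a glutathione transferase of club cells, read 10.33, 10.47 and 10.47 in HE and 10.06, 10.18 and 9.85 in WT at 1 probe set, a difference of 0.40 ± 0.13. Its other probe set gave 0.43 ± 0.16, and neither overlapped. Fmo2, the flavin monooxygenase of the lung, was at 0.40 ± 0.21 and 0.51 ± 0.28. Pdcd10, a scaffold protein whose loss causes cerebral cavernous malformations, was at 0.49 ± 0.16 and 0.37 ± 0.20, and Cttnbp2nl, a protein of the STRIPAK phosphatase complex, at 0.82 ± 0.26 and 0.34 ± 0.18.

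On the lower side stood Lmbr1, a membrane protein, at -0.68 ± 0.26 and -0.29 ± 0.13, and Cdt1, which licenses DNA replication, at -0.36 ± 0.16 and -0.27 ± 0.12. Both had 2 probe sets without overlap between groups. Dbp, a transcription factor of circadian output, was at -0.43 ± 0.20 and -0.35 ± 0.18, with HE replicate 3 above WT replicate 1 at both. The ubiquitin ligase Trim26 (-0.39 ± 0.13 and -0.35 ± 0.21) and the GTPase Arf2 (-0.36 ± 0.17 and -0.33 ± 0.20) completed the 5.

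Each replicate number in the titles holds 1 HE and 1 WT array, and the difference had the same direction within all 3 numbers for 3320 probe sets (24.5%), 1524 higher and 1796 lower. By the smallest of the 3 differences, Thsd1, Rpl37a, Tnfrsf12a, Slc43a3 and Pfkfb3 led the higher side, and Rasd2, Vps53, Tagln2, Spata13 and Adgre4 the lower side. Tnfrsf12a, the receptor of the cytokine TWEAK, read 10.08, 8.96 and 10.38 in HE and 9.50, 7.90 and 7.96 in WT, a difference of 1.35 ± 0.51, against 0.22 ± 0.48 at its other probe set. Its WT mean of 8.45 lay under 8.90, the mean that the filter asked of a probe set, so it was tested through its HE and HO arrays. WT replicate 1 of Tnfrsf12a lay above HE replicate 2, so the groups overlapped although each number had HE higher. Slc43a3, a membrane transporter of purine bases, was at 0.57 ± 0.20. Pfkfb3, a regulator of glycolysis, was at 0.62 ± 0.20, though its second probe set gave -0.07. Adgre4, an adhesion receptor of macrophages, read 9.55, 9.46 and 9.37 in HE and 10.17, 10.16 and 9.96 in WT, a difference of -0.64 ± 0.21.

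Gene lists for the cells and pathways of the lung were then read, each gene at its probe set of highest mean. Of 725 listed genes tested, 19 (2.62%) had an unadjusted p under 0.05, against 3.19% of all genes, and 0 passed over all probe sets in limma. The 35 lists with at least 5 tested genes had medians from -0.16 to 0.20, and 28 lay within 0.1 of 0, where the median over all genes was -0.01. By array, the HE and WT list medians overlapped in 32 of the 35. In the other 3, alveolar macrophage, B and plasma cell, and proliferation genes, every HE array lay below every WT array. Of single probe sets, 7.70% were fully apart in either direction. The gaps between the groups were narrow. For alveolar macrophage markers HE replicate 3 was at -0.038 and WT replicate 3 at -0.030. For proliferation genes HE replicate 2 was at -0.052 and WT replicate 2 at -0.041. With 1 array left out in turn, 27 of the 35 medians changed sign at least once. The 8 that kept it were those of glucocorticoid-responsive, heat shock, proliferation and Ephrin genes and of alveolar macrophage, type I, T and natural killer, and B and plasma cell markers. Quantile normalization changed the sign of 5 medians, and median centring, which shifts all genes of an array alike, that of 13, each within 0.036 of 0.

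Epithelial lists came first, among them the type II cells in which the Sftpc promoter is mainly active. Expression of the transgene by cell type was not measured here. Of 22 tested type II cell markers, 11 were higher and 11 lower in HE, with a median of -0.00077 and 0 at an unadjusted p under 0.05. The widest type II differences were -0.23 (Etv5, a transcription factor of these cells) and 0.16. Lung epithelial transcription factors had 7 higher and 10 lower and a median of -0.01. Nkx2-1, which drives surfactant genes, read 8.75, 9.07 and 9.09 in HE and 8.98, 9.27 and 9.52 in WT, and its -0.29 ± 0.18 came with overlapping arrays. Ehf, an epithelial ETS factor, was at -0.39 ± 0.18, and Grhl2, a grainyhead factor, at 0.25 ± 0.14 with -0.27 at its other probe set. Type I cell markers had 2 higher and 11 lower, with a median of -0.06 and the water channel Aqp5 at -0.22. Club cell markers had 8 higher and 6 lower and a median of 0.03, and only Gsta3 reached an unadjusted p under 0.05. Ciliated cell markers had 4 higher and 5 lower, with a median of -0.03.

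Genes that carry salt and water across the airway surface were mixed. Of 20 tested, 11 were higher and 9 lower, with a median of 0.03, and 2 had an unadjusted p under 0.05 (3.19% of all genes did) without passing. Ano1, the calcium-activated chloride channel, read 10.24, 9.74 and 10.36 in HE and 10.57, 10.56 and 10.51 in WT, a difference of -0.43 ± 0.18 in which HE replicate 2 was lowest. Slc26a6, an exchanger of chloride for bicarbonate and oxalate, read 8.86, 8.91 and 8.84 in HE and 9.40, 8.96 and 9.20 in WT, a difference of -0.32 ± 0.14. For both genes all HE arrays lay below all WT arrays. Slc26a4, the anion exchanger pendrin, was at -0.30 ± 0.21. On the higher side, Clcn3 had the widest value of the list at 0.43, with -0.17, 0.18 and 0.13 at its other probe sets. Slc12a2, a chloride cotransporter, was at 0.20, with 0.41 and 0.20 at its others. The sodium channel subunits Scnn1a, Scnn1b and Scnn1g, which absorb the salt that CFTR secretes against, were at 0.05 ± 0.14, -0.12 ± 0.14 and 0.14 ± 0.13.

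Proteins that bind CFTR, fold it or sort it had 24 of 46 members higher and 22 lower, with a median of 0.01. Usp10, a deubiquitinase that returns CFTR from endosomes to the membrane, read 10.81, 10.62 and 10.76 in HE and 10.23, 10.13 and 10.49 in WT. All HE arrays lay above all WT arrays, and the difference was 0.45 ± 0.15. Hspa4, a large cytosolic chaperone, was at 0.40 ± 0.15, but 2 other probe sets gave 0.04 each. The co-chaperone Dnaja1 was at 0.34 ± 0.19 and at 0.02 by its other probe set. Folding and stress genes of the endoplasmic reticulum had 10 higher and 23 lower with a median of -0.03, and the largest differences disagreed between probe sets. Hyou1, a chaperone, was at 0.60 ± 0.25 and -0.42 ± 0.27, and Edem1, which directs misfolded proteins to disposal, at -0.35 ± 0.13 and -0.01 ± 0.21. Membrane traffic genes had 23 higher and 31 lower with a median of -0.02, and Vps4b, of endosomal sorting, was at 0.32. Proteasome subunits had 19 higher and 15 lower with a median of 0.0027.

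Mucins and host defence genes of the airway had 11 higher and 7 lower, with a median of 0.02. Slurp1, a secreted epithelial protein, had the widest value, and its WT arrays were uneven. It read 9.65, 8.86 and 9.38 in HE and 10.12, 6.63 and 7.26 in WT, a difference of 1.29 ± 0.67. With 1 array left out in turn the difference ran from 0.60 to 2.35. The 2.35 came without WT replicate 1, the array above every HE array, with an adjusted p of 0.0368 in limma. The remaining WT values, 6.63 and 7.26, lay under 8.90, the mean that the filter asked of a probe set.

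Markers of other cells in whole lung lay near 0 in most lists. A lower value in bulk RNA can mean fewer cells of a type or less RNA per cell, which cannot be told apart. Endothelial markers had 15 higher and 12 lower with a median of 0.06. Acvrl1, a receptor of the TGF-beta family, read 13.01, 13.05 and 13.05 in HE and 12.77, 12.71 and 12.89 in WT, a difference of 0.25 ± 0.12 without overlap. The angiopoietin receptor Tek was at 0.26 ± 0.14 and the adhesion molecule Pecam1 at 0.30 ± 0.18. The lowest member was Ets1 at -0.23, with -0.26, -0.03 and 0.02 at its other probe sets. Of the 27 endothelial markers, 0 had an unadjusted p under 0.05. Fibroblast and matrix genes had 10 higher and 16 lower with a median of -0.04, with fibronectin (Fn1) at 0.37 ± 0.15, or 0.07 at its other probe set, and the collagen Col3a1 at -0.40 ± 0.19. Smooth muscle markers had 7 higher and 8 lower with a median of -0.04. Ephrins and Eph receptors had 3 higher and 6 lower with a median of -0.04. Mesothelial markers had 3 on each side with a median of 0.0021.

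Markers of macrophages, monocytes and lymphocytes had more members lower than higher in each list, without any that passed. Alveolar macrophage markers had 4 higher and 9 lower with a median of -0.08, and by array this median was -0.19, -0.07 and -0.04 on the HE replicates and 0.03, 0.0036 and -0.03 on the WT replicates. It had 0 members at an unadjusted p under 0.05. There were also more lower than higher among monocyte and interstitial macrophage markers, 12 against 4, with a median of -0.05. Fcgr3, an IgG receptor, was at -0.42 ± 0.19. T and natural killer cell markers had 7 higher and 11 lower with a median of -0.12, with the natural killer receptor Ncr1 lowest at -0.63 ± 0.29. The highest member of that list was at 0.28, and 0 had an unadjusted p under 0.05. Its only member without overlap between the groups was higher in HE. B cell and plasma cell markers had 2 higher and 11 lower with a median of -0.16. The 2 higher were the joining chain Jchain of plasma cells, at 0.59 ± 0.24, and the immunoglobulin gene Ighm, at 0.42. The other Ighm probe sets gave 0.64, 0.35, 0.14 and 0.04. Jchain read 13.18, 12.68 and 12.34 in HE and 12.49, 11.82 and 12.13 in WT. The gap in the B and plasma cell list was narrow, with HE replicate 1 at -0.03 and WT replicate 1 at -0.02, while HE replicates 2 and 3 were at -0.22 and -0.28. Summed linear signals of its 13 tested markers overlapped, at 44263, 41856 and 42971 in HE and 39884, 44212 and 47484 in WT. Antigen presentation genes of MHC class II had 5 on each side with a median of -0.03.

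Neutrophil markers had 11 higher and 3 lower with a median of 0.13, and single arrays set this value. S100a8, a calcium-binding protein abundant in neutrophils, read 12.29, 13.74 and 14.81 in HE and 12.01, 14.35 and 12.28 in WT, so HE replicate 3 and WT replicate 2 were high. The summed linear signal of the 14 markers was 26161, 45860 and 86003 in HE and 25263, 68202 and 27764 in WT, a wide overlap. Leaving out 1 array at a time moved the list median between -0.09 and 0.45, lowest without HE replicate 3 and highest without HE replicate 1. Cardiac muscle markers had 6 higher and 7 lower with a median of -0.02, and HE replicate 1 stood 0.47 above the WT mean. Adipocyte markers had 2 higher and 7 lower with a median of -0.16, or 0.07 without HE replicate 2. Only 3 erythroid genes were tested, and HE replicate 3 had the highest summed signal, 20807 against 8442 to 14536 on the other arrays.

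Glucocorticoid-responsive genes had the highest median of the 35 lists. Glucocorticoids act through a nuclear receptor that binds DNA and raises a known set of genes, such as Tsc22d3 and Fkbp5. The list was chosen with its earlier result in these data known, so its direction is no independent evidence. Of 23 tested members 20 were higher in HE (46.1% of all genes were) and 3 lower, with a median of 0.20. An unadjusted p under 0.05 was reached by 3, Sult1a1, Angptl4 and Fkbp5, against 3.19% of all genes, and 0 passed over all probe sets in limma. All HE arrays lay above all WT arrays for 6 members, Sult1a1, Angptl4, Cebpd, Sesn1, Ddit4 and Timp3, as they did for 3.25% of all probe sets.

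For Sult1a1, the member of lowest p, for Tsc22d3, whose 3 probe sets were all higher, and for Sgk1, a kinase with a well-known response to these hormones, 1 promoter each from RefSeq (GRCm38.p6) is printed. These are the only 3 of 20 matched list genes with the element described next, and the starts shown were chosen because they hold it. Of the other starts, 2 of Tsc22d3 and 3 of Sgk1 have none. It spans 250 bases before to 50 after a transcript start. Capitals mark TGTTCT or its reverse complement AGAACA, the 6-base element that the glucocorticoid receptor and its relatives recognise, and in Sgk1 2 of these elements form the palindrome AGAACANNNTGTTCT. Sult1a1 lies at chr7:126676369-126676668 on the minus strand, the Tsc22d3 start at chrX:140600473-140600772 on the minus strand, and the Sgk1 start at chr10:21993640-21993939 on the plus strand.
Sult1a1: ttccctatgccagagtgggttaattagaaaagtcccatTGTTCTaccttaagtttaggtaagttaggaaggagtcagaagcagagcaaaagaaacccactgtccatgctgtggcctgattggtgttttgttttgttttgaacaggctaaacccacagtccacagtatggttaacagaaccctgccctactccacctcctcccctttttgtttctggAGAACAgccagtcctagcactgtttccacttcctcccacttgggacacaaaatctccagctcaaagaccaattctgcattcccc
Tsc22d3: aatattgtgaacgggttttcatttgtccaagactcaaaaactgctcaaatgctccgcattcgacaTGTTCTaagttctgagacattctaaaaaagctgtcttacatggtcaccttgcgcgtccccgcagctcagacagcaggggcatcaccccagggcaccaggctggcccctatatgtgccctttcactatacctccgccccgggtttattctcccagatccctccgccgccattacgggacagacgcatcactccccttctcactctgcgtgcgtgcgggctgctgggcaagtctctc
Sgk1: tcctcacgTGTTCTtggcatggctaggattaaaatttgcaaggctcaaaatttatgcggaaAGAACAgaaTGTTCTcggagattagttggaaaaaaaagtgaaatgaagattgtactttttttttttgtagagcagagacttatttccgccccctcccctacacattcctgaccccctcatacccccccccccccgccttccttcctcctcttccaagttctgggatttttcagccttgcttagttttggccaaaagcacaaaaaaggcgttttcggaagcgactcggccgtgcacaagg
The 6-base element, read on both strands, was in 6233 of 32851 promoters of this length (19.0%), and in 5 of the 31 promoters (16.1%) found for 20 of the 23 list genes. The palindrome, which contains 2 of the 6-base elements, was in 3 promoters of all, and 1 of these is the Sgk1 promoter shown. Letters in these windows are a description only. Sgk1 itself read 12.63, 12.72 and 12.84 in HE and 12.71, 12.48 and 12.95 in WT, a difference of 0.01 ± 0.17.

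Sult1a1, with 2 of the elements in the promoter above, read 10.78, 11.27 and 11.27 in HE and 10.67, 10.52 and 10.19 in WT. HE replicate 1 stood just above the highest WT array. Angptl4, an inhibitor of lipoprotein lipase, read 11.16, 11.18 and 11.15 in HE and 10.18, 10.99 and 10.29 in WT, a difference of 0.68 ± 0.20, or 1.60 times the WT signal. The HE arrays of Angptl4 were nearly equal and WT replicate 2 was close below them. Fkbp5, a co-chaperone of steroid receptors, read 10.31, 10.68 and 10.73 in HE and 9.98, 10.12 and 10.44 in WT, a difference of 0.39 ± 0.16, with -0.05 at its other probe set. Tsc22d3, a glucocorticoid-induced leucine zipper protein, gave 0.40 ± 0.23, 0.52 ± 0.20 and 0.29 ± 0.14 at its 3 probe sets. Klf9, a transcription factor induced by the receptor, ranged from -0.11 to 0.50 over 5 probe sets. Cebpd, an acute-phase transcription factor, was at 0.41 ± 0.22 and -0.27 ± 0.21 by its 2 probe sets, and Zbtb16, a zinc finger factor, at 0.70 ± 0.51 and -0.50 ± 0.49. The members that were lower were the metallothionein Mt1 (-0.10), annexin A1 (Anxa1, -0.07) and Hif3a (-0.05).

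Set against the WT mean, the glucocorticoid list median stood at 0.05, 0.24 and 0.29 on the HE replicates and at -0.13, 0.07 and 0.07 on the WT replicates. HE replicate 1 thus lay below WT replicates 2 and 3. Within replicate numbers 1, 2 and 3 the median difference was 0.13, 0.15 and 0.25, and 11 of the 23 members were higher in all 3 (11.2% of all probe sets were). Leaving out 1 array at a time gave 0.14 to 0.28. HE minus HO had a median of 0.09, with 14 members above HO and 2 at an unadjusted p under 0.05, Fkbp5 (-0.43) and Cebpd (0.695). HO minus WT, which shares the WT arrays, had a median of 0.09. HE replicate 3, highest for this list, was also highest in the summed neutrophil markers above, and WT replicate 1, lowest for this list, was lowest there too. The other arrays did not follow the same order. WT replicate 2 had a higher neutrophil sum than HE replicate 2 (68202 against 45860) but a lower median for this list. By list median the lowest neutrophil array was HE replicate 1 (-0.35). Lcn2 is in both lists, and the part of neutrophils in the values was not tested.

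**Figure D4:**
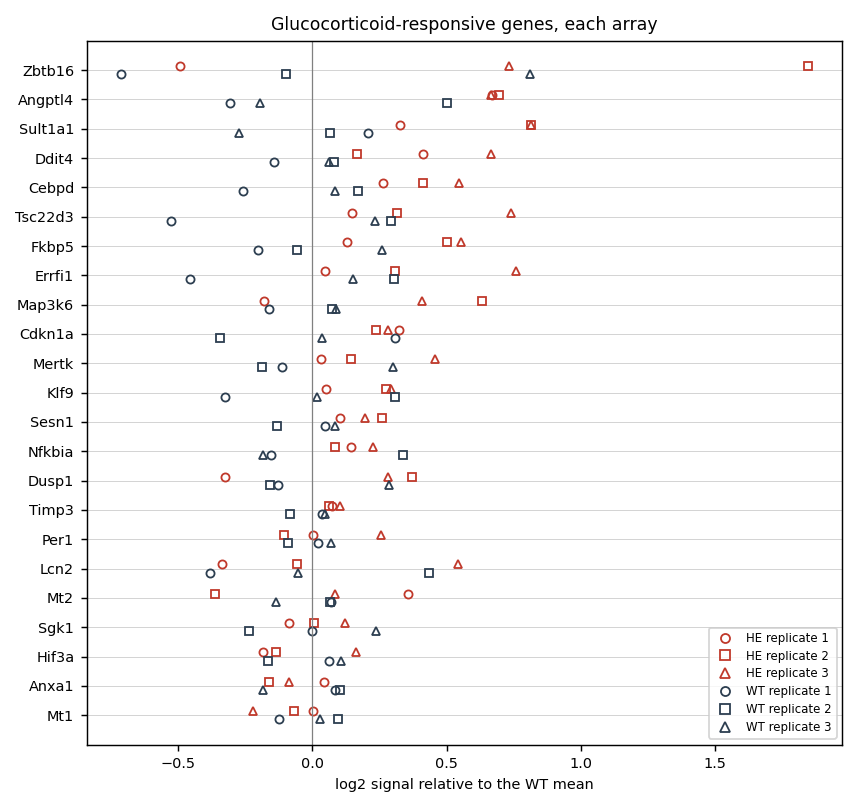
Log2 signal of the 23 tested glucocorticoid-responsive genes on each of the 6 arrays, relative to the WT mean (horizontal axis), ordered by HE minus WT; red symbols are HE and dark symbols WT replicates. The HE values of Angptl4 lie close together near 0.68, those of Zbtb16 are spread widely, and symbols overlap for most members.

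Other stress and signalling lists were read the same way. Heat shock genes had 15 higher and 8 lower with a median of 0.13, or 0.02 without WT replicate 1, 0.04 without WT replicate 2 and 0.06 without HE replicate 3, with WT replicate 1 lowest and WT replicate 3 highest of the 6 arrays. Immediate early genes, which respond within minutes to stimuli, had 7 higher and 22 lower with a median of -0.13. Fosl2, an AP-1 subunit, read 8.70, 7.53 and 9.04 in HE and 9.32, 9.46 and 9.30 in WT, a difference of -0.94 ± 0.35 without overlap. Its HE replicates 1 and 2 lay under 8.90, the mean that the filter asked of a probe set. The zinc finger factors Egr3 and Egr2 were at -0.78 ± 0.40 and -0.59 ± 0.31. The median of immediate early genes was -0.47, 0.07 and 0.02 on the HE replicates and -0.27, -0.16 and 0.29 on the WT replicates, and the list median was 0.09 without HE replicate 1 and 0.01 without WT replicate 3. Clock genes had 10 higher and 5 lower with a median of 0.09, or -0.07 without WT replicate 1 and -0.05 without HE replicate 3, while Dbp and Nr1d1, a repressor under the control of the clock (-0.47 ± 0.21), were lower. Bhlhe40, another clock repressor, was at -0.36 ± 0.18.

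Interferon-induced genes had 11 higher and 15 lower with a median of -0.07, and 1 WT array stood apart. The median was 0.17 without WT replicate 1, 0.0038 without HE replicate 1 and -0.24 without HE replicate 2. Ifit1, an antiviral RNA-binding protein, read 10.22, 10.26 and 10.43 in HE and 12.00, 10.63 and 10.35 in WT, a difference of -0.69 ± 0.34. WT replicate 1 was high, while the HE arrays overlapped the other two WT arrays. Oasl1, of the same response, was at -0.32 ± 0.13 and did not overlap. Inflammatory cytokine and chemokine genes had 10 higher and 11 lower with a median of -0.04. Antioxidant genes had 14 higher and 13 lower with a median of 0.01, and they hold Txn2 at the lower end and Gsta3 and the aldehyde dehydrogenase Aldh3a1 (0.43 ± 0.15) at the higher end. Proliferation genes had 2 higher and 13 lower with a median of -0.10, and HE replicates were at -0.13, -0.05 and -0.05 against -0.00038, -0.04 and 0.05 in WT, with the cell cycle factor Foxm1 at -0.39 ± 0.18 and the topoisomerase Top2a at -0.35 ± 0.16. Mitochondrial oxidative phosphorylation subunits (26 higher, 29 lower, median -0.0030), cholesterol and fatty acid synthesis genes (13, 17, -0.0068) and cytosolic ribosomal proteins (18, 24, -0.02) were near 0. Within the last list Rps27 was at -0.45 ± 0.19.

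**Figure D5:**
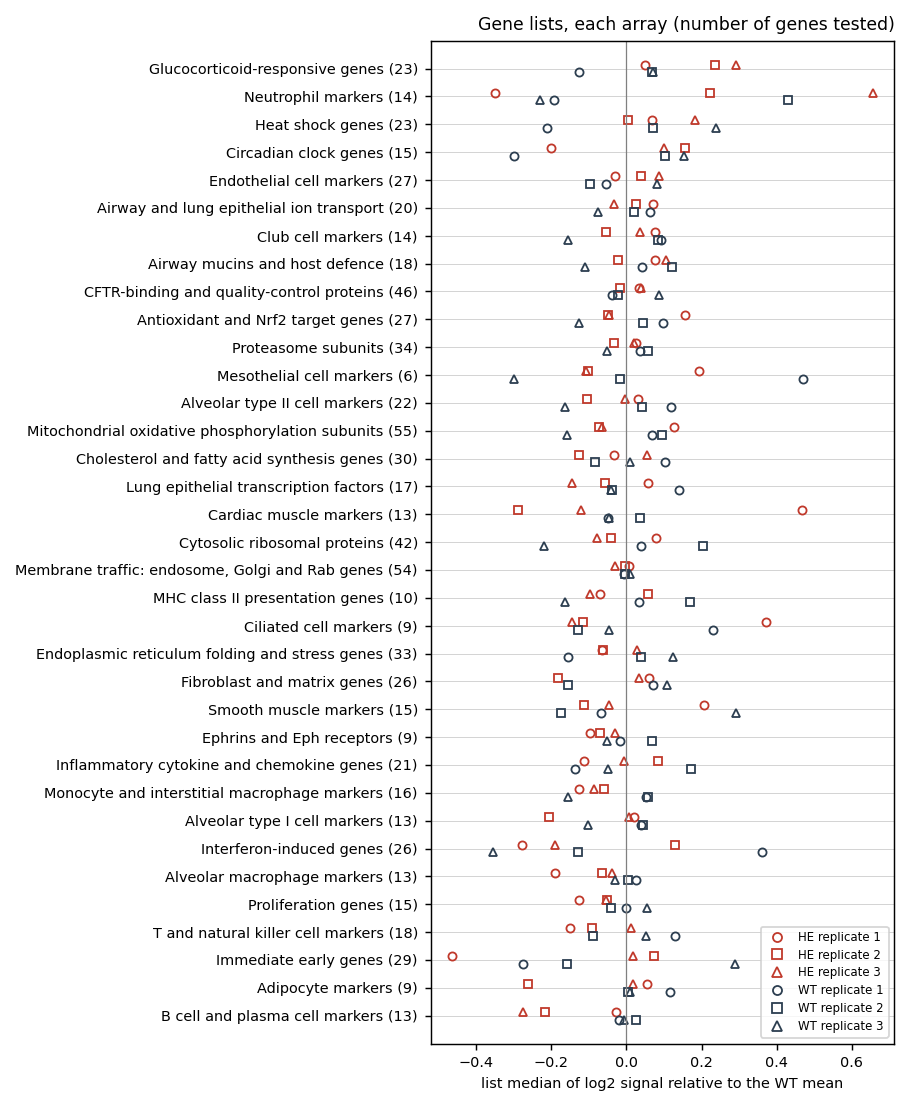
Median log2 signal of each gene list relative to the WT mean on each of the 6 arrays (horizontal axis), for the 35 lists with at least 5 tested genes, ordered by HE minus WT; the number of genes is in brackets. Symbols of HE and WT overlap in 32 of the 35 lists, and the widest range within HE is that of the neutrophil list (1.01) and within WT that of the mesothelial list (0.77).

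The fit was also run on all 22626 probe sets with no filter, and 2 of them (0.00884%) passed an adjusted p of 0.05 in limma. Fezf2, a transcription factor of the developing forebrain, had linear signals of 127.4, 160 and 101.6 on the HE replicates against 17.5, 15.1 and 12.1 in WT and 31.2, 20.3 and 20.1 in HO. All WT signals lay under the floor of 25.5, so HE was at least 4.99-fold higher (adjusted p = 0.0366 in limma). Syt8, a synaptotagmin of vesicle fusion, had signals of 117.1, 123.6 and 125.6 in HE against 462.6, 346.5 and 436.3 in WT and 560.9, 591.2 and 457.9 in HO. Its difference from WT was -1.76 ± 0.14 (adjusted p = 0.0381 in limma). Both also differed between 1 and 2 alleles, and were the only 2 of 22626 probe sets (0.00884%) to do so: HE minus HO was -2.13 ± 0.14 for Syt8. For Fezf2, 2 of the 3 HO signals lay under the floor, so HE was at least 4.67-fold higher than HO.

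These signals were low. The HE signals of Fezf2 exceeded those of 14.6% to 19.5% of probe sets and the HE signals of Syt8 16.5% to 16.7%, and neither gene has another probe set. The calls rested on the spread shared with the HO arrays: in a fit of the HE and WT arrays alone, chosen after seeing the data, 0 passed, with a smallest adjusted p of 0.376 from limma. With the replicate number as a block in the unfiltered fit it was 0.460, again with 0 that passed. Next in rank were Pacc1, a proton-activated chloride channel, at 184.8, 210.6 and 198.9 in HE against 373.8, 330.7 and 406.1 in WT, and the cytokine Il21, at 14.8, 25.1 and 30.8 against 209.8, 136.9 and 126.9. Neither passed.

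The difference between 1 and 2 alleles was tested across the same 13576 probe sets, and 0 (0%) had an adjusted p under 0.05 in limma, while 348 (2.56%) had an unadjusted p under 0.05. Of the 20 leading genes, 8 reached that level for HE minus HO: Efnb2 (0.54), Med1 (0.39), Csnk1g2 (0.31), Rasd2, Vps53 (-0.40), Icosl (-0.41), Col18a1 (-0.44) and Spata13 (-0.54). These genes were chosen for their HE values, which both differences use, so the count of 8 is a description only. At the other 12, HE minus HO missed it, from Rpl37a at -0.33 to Vapb at 0.36.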

How the data were processed

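Total lung RNA of FVB/N mice was labelled and hybridised to mouse arrays named 430A, per the labels. The authors deposited 1 linear intensity per probe set and array, and the values show that each array had been scaled to a mean of 1500 after trimming 2% at each end. Which program turned probe signals into these values was not given in the sources used here. Intensities under the 5th percentile of all values (25.5) were set to it as a floor and log2 was taken, 64 controls were removed, and probe sets with a mean under the 40th percentile (8.90) were left out. Group means of all 9 arrays were fitted with limma 3.58.1 in R 4.3.3 (lmFit, eBayes, 6 residual degrees of freedom), with Benjamini-Hochberg adjustment over 13576 probe sets. SE is the moderated SE. Symbols came from the platform annotation (20380 probe sets with 1, 691 with several, 1555 with none).

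The members and the 36 gene lists were chosen with earlier results of these data known. Named genes were Sftpc and Cftr, the 10 in each direction of lowest p without overlap, the 5 in each direction of lowest highest p among genes with every probe set on 1 side, the 5 in each direction with the largest smallest difference within replicate numbers, and, from each list described at length, its 3 members of lowest p. Cacul1, the sodium channel subunits, Clcn3, Slc12a2, Ets1, Ighm, Sgk1, Klf9, Tsc22d3, Cebpd, Zbtb16, Mt1, Anxa1, Hif3a, Lcn2, Sesn1, Ddit4, Timp3 and the low-signal genes were chosen after their values were seen. The same code was tested on simulated data. Deviations from the group means of HE and WT arrays with the same number correlated at 0.301, 0.050 and 0.043. The main fit did not take the numbers as pairs, and a fit with the number as a block was run as an alternative. The source names also carry set numbers (3, 9 and 11 for replicates 1, 2 and 3), which the labels do not explain. A fit with the number as a block had a median SE of 0.144, against 0.160 in the main fit. Part of the spread in the main fit therefore followed these numbers. Counts from the blocked fit are given in the closing section.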

Additional observations from a re-analysis of the deposited data

Results flagged for a closer look

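Without the filter on low signal, 2 genes differed between mice with 1 and with 2 transgenic alleles by the test of that difference. Fezf2 had HE minus HO at 2.22 on the log2 scale (adjusted p = 0.0247 in limma), a lower bound because 2 of the 3 HO signals were under the floor of 25.5, with signals of 101.6 to 160 in HE and 20.1 to 31.2 in HO. Syt8 had HE minus HO at -2.13 (adjusted p = 0.0194 in limma), with signals of 117.1 to 125.6 in HE and 457.9 to 591.2 in HO. WT signals were 12.1 to 17.5 for Fezf2 and 346.5 to 462.6 for Syt8. Both signals are low, and neither gene has another probe set to compare with.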

How the results depend on the processing

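The count of probe sets with an adjusted p under 0.05 in limma was 0 with every array kept and a filter in place, and 2 with no filter, with or without the floor. With no filter it was 0 with only HE and WT arrays (lowest adjusted p 0.376) and 0 with the replicate block (0.460). Leaving out 1 array at a time gave 0 to 1; the 1 was Slurp1 without WT replicate 1 (2.35). The 422 probe sets at an unadjusted p under 0.05 became 992 with no filter and 260 with the filter at the 60th percentile. With no filter and a second change, chosen after seeing the data, they were 1028 (only HE and WT arrays), 908 (no floor) and 1236 (replicate block), and 340 to 574 with 1 array left out. With the replicate block in the filtered fit 591 had an unadjusted p under 0.05 and 0 passed, and with only HE and WT arrays and this block 581 and 0; HO replicate 2 counted as HE gave 569 and 0. Of 1936 values of named genes, 1927 kept their sign and side of the threshold, and 8 changed sign. Genes chosen for arrays without overlap cannot change sign when 1 array is left out. No probe set passed in the main fit. The count of 1927 was thus partly fixed by the choice of genes and is a description only. Sftpc was at 0.00223 with median centring and at 0.00241 with HO replicate 2 counted as HE. With 1 array left out Sftpc ran from -0.18 to 0.038, mouse Cftr from -0.040 (without WT replicate 3) to 0.17, Lyz2 from -0.033 (without WT replicate 3) to 0.22 and Mmp8 from -0.094 (without HE replicate 3) to 0.95. Of 719 list medians, 18 moved by more than the spread between replicates. Of the genes named by rule, 0 passed in HE minus HO in limma under any setting run; the 2 that did with no filter, Fezf2 and Syt8, lie outside the rule. The cause of these changes was not tested.

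Precision is limited by 3 arrays per group, which gave 95% intervals of about 0.351 to either side, and by low signals, for which no detection calls were used.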
